A study of Mus musculus with 20 samples.

Results

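The 10 mouse genes described here encode subunits of voltage-gated calcium channels: Cacna1a, Cacna1b, Cacna1c, Cacna1d, Cacna1e, Cacna1g, Cacna1h, Cacna1i, Cacna2d1 and Cacnb2. They were taken by name from the 25190 genes of a count table of mouse hippocampal RNA sequencing, and all 10 were present in it. The table holds 20 libraries in 4 groups of 5, all from wild-type C57BL/6JOlaHsd male mice labelled as 4 months old. Each mouse received infusions into the dorsal CA1 of both hemispheres. The infusate was artificial cerebrospinal fluid in Vehicle mice and human small RNA (sRNA) in the others. For the Control group it was sRNA combined from the post-mortem hippocampi of unaffected individuals, and for the groups Pool 1 and Pool 2 it came in the same way from separate cohorts of patients with schizophrenia. Each of these human preparations is a single pool, so that 5 mice of a group share 1 preparation, and cannulation and infusion are shared by all groups, since no untreated mice were analysed here. Mice had been through behavioural testing, and tissue was taken 24 hours after its end. The labels call it hippocampal brain tissue and the design text calls it CA1.

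A voltage-gated calcium channel opens when the membrane depolarizes and lets calcium into the cell, where it triggers transmitter release, shapes firing and starts signalling to the nucleus. The pore is formed by an alpha-1 subunit, encoded by a Cacna1 gene. Cacna1a (P/Q-type) and Cacna1b (N-type) supply much of the calcium for transmitter release, Cacna1e forms R-type channels, and Cacna1c and Cacna1d form L-type channels, known for coupling activity to gene expression. Cacna1g, Cacna1h and Cacna1i form the low-voltage-activated T-type channels, known for burst firing. High-voltage-activated channels also carry a cytoplasmic beta subunit, such as that of Cacnb2, and an alpha-2/delta subunit, such as that of Cacna2d1, both of which help bring the channel to the membrane; the alpha-2/delta subunit binds gabapentin. Several of these genes, CACNA1C and CACNB2 among them, are known from genetic studies of psychiatric disorders.

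Totals per library ranged from 20588280 to 25543939 counts. Levels are given as CPM (counts scaled to a common library size, after TMM normalization), and levels of different genes are compared only as CPM per kilobase of annotated exon. Across the 20 libraries each of the 10 genes had between 750 and 19114 counts, so that none was near the floor of detection. In the tissue, all measured markers of CA1 pyramidal neurons (6 of 7 listed), CA3 pyramidal neurons (7), dentate granule cells (8) and interneurons (10) had counts in every library. Summed over its list, the level of the 15 thalamic markers ran from 234 to 303 CPM in Vehicle, 190 to 387 in Control, 176 to 208 in Pool 1 and 196 to 863 in Pool 2. That of the 10 choroid plexus markers reached 9231 CPM in Vehicle replicate 4, and that of the 8 microglial markers 1098 CPM in Pool 2 replicate 1. Those 2 libraries stood apart from the rest of their groups, and results are therefore also given without them where that mattered. In bulk tissue, fewer cells of a type and less RNA per cell cannot be told apart.

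RefSeq promoter windows, each from 250 bases before to 50 bases after a transcription start on GRCm38.p6, were available for 7 of the 10 genes, in 11 windows. Those shown are of Cacna1i, which was the member with the largest difference between groups, and of Cacna1e and Cacna1d, the pair that moved together most closely across libraries. Capitals mark TATAAA, TGACGTCA (the cAMP response element) and GGGCGG (the GC box), searched on both strands, with overlapping matches counted separately. The strand is that of the gene.
Cacna1i, chr15:80286988-80287287, plus strand: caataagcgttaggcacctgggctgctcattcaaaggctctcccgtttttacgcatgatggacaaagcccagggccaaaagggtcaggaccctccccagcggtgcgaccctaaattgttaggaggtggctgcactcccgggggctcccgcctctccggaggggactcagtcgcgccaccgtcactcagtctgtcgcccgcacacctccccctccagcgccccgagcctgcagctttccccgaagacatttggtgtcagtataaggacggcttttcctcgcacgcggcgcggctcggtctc
Cacna1e, chr1:154725871-154726170, minus strand: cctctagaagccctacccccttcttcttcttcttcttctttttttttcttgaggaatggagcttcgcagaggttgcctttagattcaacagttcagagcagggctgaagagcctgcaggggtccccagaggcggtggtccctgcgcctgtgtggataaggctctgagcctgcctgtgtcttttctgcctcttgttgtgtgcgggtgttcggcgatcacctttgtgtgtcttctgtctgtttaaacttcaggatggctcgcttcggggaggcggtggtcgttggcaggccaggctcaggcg
Cacna1d, outer start, chr14:30491107-30491406, minus strand: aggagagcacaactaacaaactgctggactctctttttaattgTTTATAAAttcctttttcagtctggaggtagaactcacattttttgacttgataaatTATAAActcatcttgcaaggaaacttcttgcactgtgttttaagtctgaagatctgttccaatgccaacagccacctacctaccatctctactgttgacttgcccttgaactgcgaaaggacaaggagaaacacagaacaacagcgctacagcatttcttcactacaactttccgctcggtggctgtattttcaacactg
Cacna1d, inner start, chr14:30353437-30353736, minus strand: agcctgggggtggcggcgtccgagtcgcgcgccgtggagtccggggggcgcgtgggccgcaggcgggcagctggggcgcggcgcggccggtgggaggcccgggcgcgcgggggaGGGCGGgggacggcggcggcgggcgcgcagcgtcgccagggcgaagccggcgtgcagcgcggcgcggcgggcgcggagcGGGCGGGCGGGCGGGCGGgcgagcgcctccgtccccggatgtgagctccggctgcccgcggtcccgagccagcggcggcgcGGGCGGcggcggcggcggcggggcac

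The Cacna1i and Cacna1e windows held none of the 3 motifs. The Cacna1e window is at an inner start, since the annotated gene on this strand begins at position 154884501, and no window of that outer start was available. The windows of Cacna1d differed from each other: the outer one was 40.3% G and C with 4 CpG dinucleotides and 3 matches to TATAAA, and the inner one was 87.3% G and C with 63 CpG dinucleotides and 6 matches to GGGCGG. For comparison, the Cacna1i window was 62.7% and the Cacna1e window 55.3% G and C, and the median over all 32851 windows of the table was 52.7%. Over the 11 windows of the family, 5 held GGGCGG, 1 held TATAAA and none held TGACGTCA. The shares over all windows were 35.7%, 13.6% and 1.79%. The counts per gene do not say which start of Cacna1d was in use.

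By CPM per kilobase, the 10 genes fell into a higher and a lower group of 5. Cacna1e was highest at 21.5 ± 4.70 (SD, n = 20 libraries), followed by Cacna1a at 18.3 ± 2.71, Cacna2d1 at 17.7 ± 3.40, Cacna1h at 16.2 ± 2.81 and Cacna1b at 14.0 ± 1.85. The second group held Cacna1i at 6.76 ± 1.22, Cacna1g at 6.47 ± 1.38, Cacnb2 at 6.13 ± 0.648, Cacna1c at 6.00 ± 1.49 and Cacna1d at 5.74 ± 1.17. Only the step between Cacna1b and Cacna1i separated neighbours in all 20 libraries. Cacna1e exceeded Cacna1a in 17 of 20 libraries and Cacna1h exceeded Cacna1b in 17, whereas the other neighbours were in the stated order in 11 to 13 of 20 and did not differ beyond their spread. Thus, by CPM per kilobase, the presynaptic P/Q- and N-type genes, the R-type gene, the T-type gene Cacna1h and the alpha-2/delta gene ranked higher. Both L-type genes ranked lower by this measure. The annotated span of Cacna1a and Cacna1c differs between the annotation of the table and the one that gave the lengths, so the place of these genes in the order is approximate. The order also depends on the length used, the union of all annotated exons, which can exceed the length of any 1 transcript. Cacna1c, with 21.2 kilobases from 27 transcripts, and Cacna1b, with 9.94 kilobases from 10, were close in mean CPM, at 127 and 139.

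**Figure D1:**
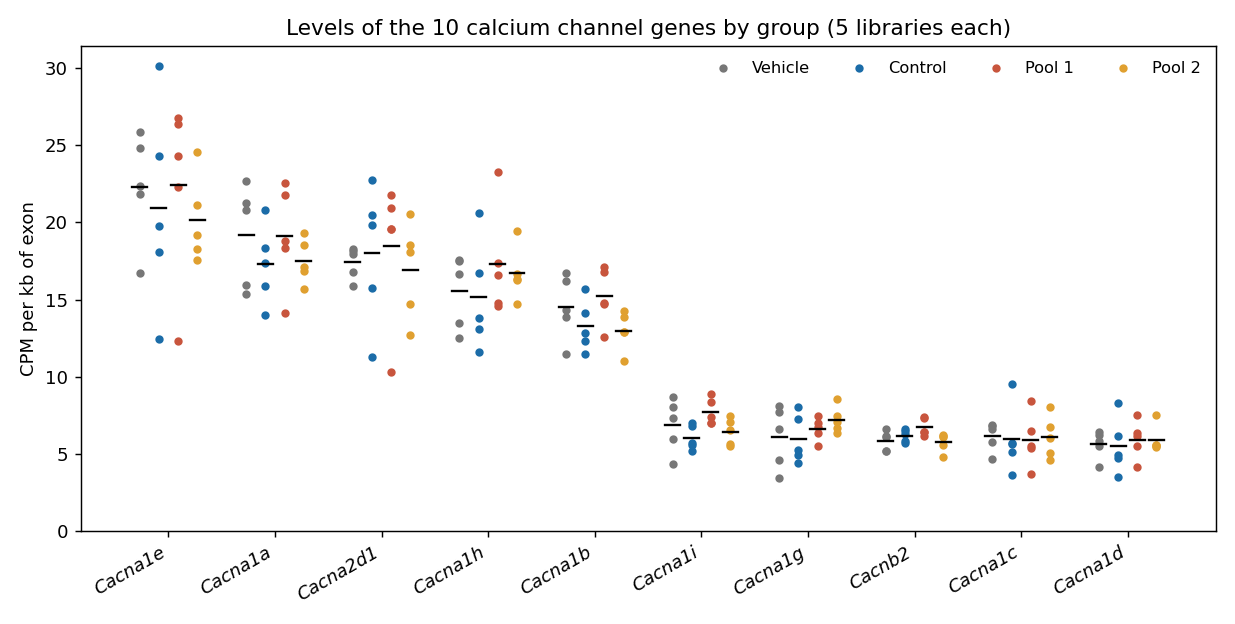
Level of each gene (y axis, CPM per kilobase of exon) in every library, with the groups side by side and a bar at each group mean (n = 5). The means over all libraries run from 14.0 to 21.5 for the left 5 genes and from 5.74 to 6.76 for the right 5, and the groups overlap for every gene.

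The families of channel subunits that are not members filled in this picture. Among pore subunits, the skeletal muscle gene Cacna1s and the retinal gene Cacna1f were near the floor, with mean counts of 14.9 and 3.05. Among beta subunits, Cacnb3 (54.4 CPM per kilobase), Cacnb1 (33.5) and Cacnb4 (16.5) were all above Cacnb2, and among alpha-2/delta subunits Cacna2d3 (16.1) was near Cacna2d1, with Cacna2d2 at 3.26 and Cacna2d4 at 0.217.

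The first question was whether sRNAs of patients changed the expression of these genes compared with sRNAs of unaffected individuals. The study counts a gene as changed where its log2 fold change is 0.3 or more in either direction and its unadjusted p is under 0.05, and drops genes with a mean normalized count under 10. The limits on fold change and p are used here as the threshold, without the limit on the mean count, with edgeR's quasi-likelihood test on all 20 libraries, beside p-values adjusted over all 25190 genes (Benjamini-Hochberg). In Pool 1 against Control, 1 of the 10 genes passed, Cacna1i, which was higher; 3.48% of all genes passed, 2.44% of the 16644 genes above the study's limit on the mean, and 0.92% of the 5217 genes with a mean count of at least 1000, the range in which all 10 members lie. In Pool 2 against Control, in Pool 2 against Pool 1 and in Control against Vehicle, 0 of 10 passed. There the shares were 6.22%, 6.82% and 5.1% of all genes, 5.75%, 6.79% and 4.74% of those above that limit, and 0.863%, 1.88% and 1.59% of those with a mean count of at least 1000. After adjustment no gene of the family passed in any comparison, nor did any other gene of the table (0% in each). At an unadjusted p under 0.05 without the fold limit, edgeR gave 1, 0, 2 and 0 of the 10. The other 2 were Cacna1b and Cacnb2 in Pool 2 against Pool 1.

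By direction alone, with no test, 9 of 10 members had a positive fold change in Pool 1 against Control, with a median log2 fold change of 0.13, where 54.9% of the genes with a mean count of at least 1000 were positive with a median of 0.013. In Pool 2 against Control 6 of 10 were positive (median 0.027), beside 33.6% of those genes (median -0.042). In Pool 2 against Pool 1 only 2 of 10 were positive (median -0.13), beside 30.4% (median -0.049). For Control against Vehicle, 2 of 10 were positive (median -0.043), beside 52.6% (median 0.0062). Comparisons that share a group are not independent, and the 10 genes moved together across libraries, as described further on, so that these counts do not stand for 10 separate observations.

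**Figure D2:**
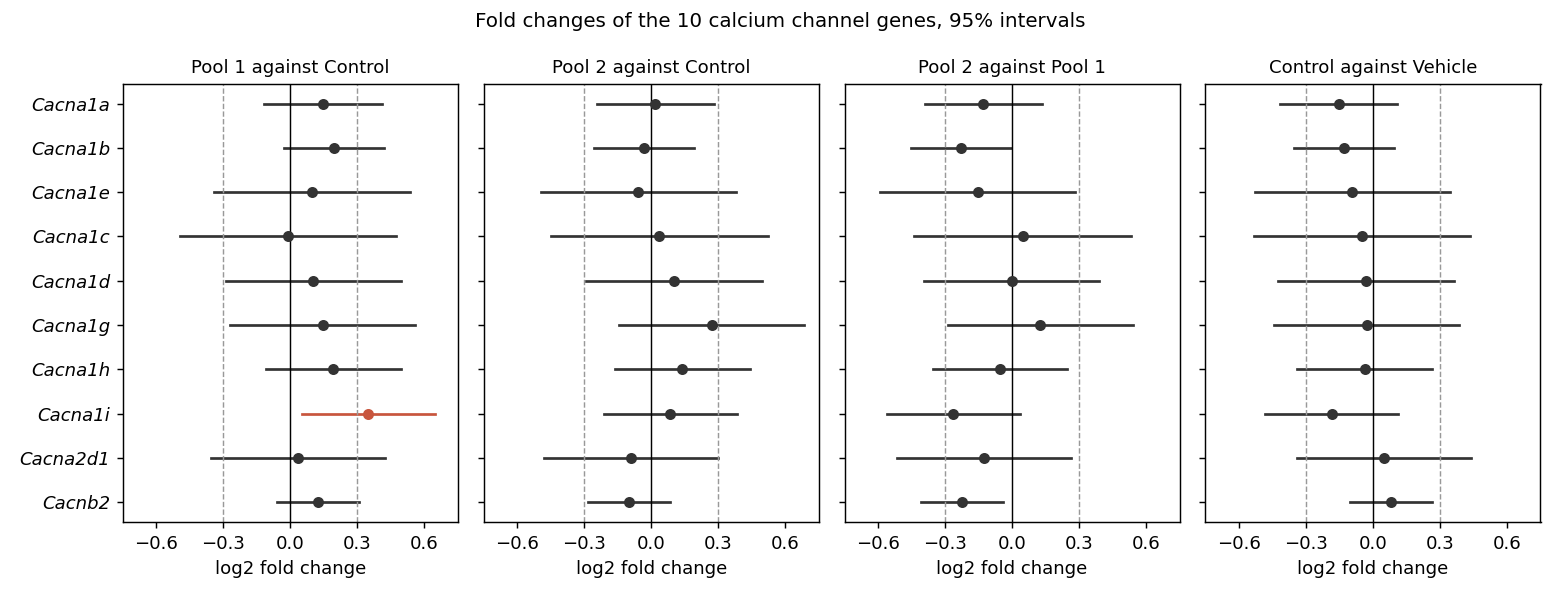
Log2 fold change (x axis) of each gene in the 4 comparisons, ordered by channel type, with 95% intervals from the edgeR fit (n = 5 per group); dashed lines mark -0.3 and 0.3. Cacna1i in Pool 1 against Control, in red at 0.35, is the only point past the threshold, and most intervals include 0 and reach beyond 0.3 on at least 1 side.

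Cacna1i encodes the Cav3.3 pore of T-type channels. Its levels were 69.0, 87.3, 82.3, 72.5 and 68.8 CPM in Pool 1 and 67.3, 55.1, 56.3, 50.7 and 68.8 CPM in Control. The 4 highest Pool 1 libraries lay above all Control libraries and the fifth was level with the highest one. The means were 76.0 ± 8.38 and 59.6 ± 7.98 CPM (SD, n = 5 each), a log2 fold change of 0.35 (SE 0.14, 95% interval 0.051 to 0.65, unadjusted p = 0.0238, adjusted p = 0.917 by edgeR). Pool 2, at 69.6, 64.2, 54.0, 55.5 and 73.3 CPM, spread over the Control range, with a log2 fold change against Control of 0.086 (95% interval -0.21 to 0.38). Vehicle libraries ran from 42.5 to 85.7 CPM and covered the values of all other groups except the highest of Pool 1. Against Pool 1, Pool 2 was lower by a log2 fold change of -0.26 (95% interval -0.56 to 0.035, unadjusted p = 0.0806, adjusted p = 0.651 by edgeR), so that a difference between the pools was not shown. Cacna1i passed the threshold in Pool 1 against Control in 6 of the 10 fits that left out 1 library of these groups. It did not pass without Control replicate 2 (0.32, unadjusted p = 0.0518), Control replicate 4 (0.29, unadjusted p = 0.0612), Pool 1 replicate 2 (0.29, unadjusted p = 0.0661) or Pool 1 replicate 3 (0.32, unadjusted p = 0.0519).

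Markers of CA1 pyramidal neurons moved in the same direction as Cacna1i. All 6 measured CA1 markers had positive fold changes in Pool 1 against Control, between 0.26 for Fibcd1 and 0.35 for Gpr161, with a median of 0.31; none of them passed the threshold. All 8 dentate granule cell markers were negative in that comparison (median -0.26, none past the threshold). Per library, the mean log2 CPM of the CA1 list ran from 5.87 to 7.28 in Pool 1 and from 5.99 to 6.95 in Control, and Pool 1 replicates 2 and 3, the highest of Pool 1 in Cacna1i, had the 2 highest values of the list. Over all 20 libraries Cacna1i followed the CA1 list with Pearson's r = 0.60 (permutation p = 0.00509, adjusted p = 0.0399 over 40 relations) and Spearman's rho = 0.67 (permutation p = 0.00166, adjusted p = 0.0664), and r was 0.57 without the 2 libraries farthest from the median of the list and 0.55 after each group's mean was removed. With the CA1 list as a covariate, the fold change of Cacna1i in Pool 1 against Control was 0.26 (unadjusted p = 0.0464 by edgeR, adjusted p = 0.837), under the fold limit. Most other lists moved the other way. Of 15 thalamic markers, 14 had negative fold changes in Pool 1 against Control (median -0.40), of which Zic1 and Zic4 passed the threshold. Of 8 astrocyte markers, 6 were negative (median -0.16), of which Gfap passed. Only 0 of 10 choroid plexus markers (median -1.45, Otx2 past the threshold), 1 of 8 microglial and 0 of 5 blood markers were positive. The same held for 2 of 10 neocortical, 2 of 7 CA3 and 2 of 8 oligodendrocyte markers. Positive were 6 of 8 endothelial and mural and 6 of 10 interneuron markers. With the thalamic list as a covariate, Cacna1i was at 0.29 (unadjusted p = 0.0617 by edgeR) and no longer past the threshold. With the dentate granule cell list it was at 0.33 (unadjusted p = 0.0377 by edgeR) and still past it. The call was also made by DESeq2 (0.35, unadjusted p = 0.0200) and in the edgeR fit of only these 2 groups (0.37, unadjusted p = 0.00373). What share of the tissue came from CA1 was not measured.

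Cacnb2 and Cacna1b gave the smallest p-values between the pools. Cacnb2, a beta subunit, was at 84.3, 97.6, 97.1, 85.0 and 81.3 CPM in Pool 1 and at 63.0, 74.0, 81.4, 82.3 and 80.6 CPM in Pool 2. The 3 lowest Pool 2 libraries lay below all of Pool 1, and the other 2 were close to its lowest library. Pool 2 was lower by a log2 fold change of -0.22 (SE 0.089, 95% interval -0.41 to -0.039, unadjusted p = 0.0196, adjusted p = 0.468 by edgeR), short of the fold limit. Control lay between the pools at 81.7 ± 5.25 CPM (SD, n = 5), with intervals that included 0 against both. Cacnb2 was also the steadiest of the 10 genes: its within-group SD of log2 CPM was 0.14, beside a median of 0.16 over the genes with a mean count of at least 1000.

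Cacna1b, the N-type pore, was at 170, 147, 167, 147 and 125 CPM in Pool 1 and at 109, 142, 128, 138 and 128 CPM in Pool 2. Only the lowest Pool 2 library was below the Pool 1 range, and the lowest Pool 1 library lay within Pool 2. The log2 fold change was -0.23 (SE 0.11, 95% interval -0.45 to -0.0061, unadjusted p = 0.0445, adjusted p = 0.572 by edgeR). Against Control, Pool 1 was at 0.20 (95% interval -0.028 to 0.42) and Pool 2 at -0.034 (95% interval -0.26 to 0.19). The Pool 2 library lowest in both Cacnb2 and Cacna1b was replicate 1, the one with high microglial markers. Without it the fold changes between the pools were -0.16 (unadjusted p = 0.0775) for Cacnb2 and -0.18 (unadjusted p = 0.128) for Cacna1b.

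The partner of Cacna1b in transmitter release, Cacna1a, was at 197 ± 29.1 CPM in Control, 218 ± 38.3 in Pool 1, 200 ± 16.3 in Pool 2 and 219 ± 38.0 in Vehicle (SD, n = 5 each). Its log2 fold changes lay between -0.15 and 0.15 in the 4 comparisons, with intervals that reached at most 0.41 from 0 in either direction. The R-type gene Cacna1e had 313, 457, 499, 760 and 613 CPM in Control and 666, 676, 613, 563 and 310 CPM in Pool 1. Both groups held 1 library near 310 CPM, so that the spread within a group exceeded any difference of means, and the log2 fold change was 0.098 (SE 0.21, 95% interval -0.34 to 0.53). Pool 2 (442 to 619 CPM) and Vehicle (421 to 652 CPM) lay inside the Control range.

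Of the L-type genes, Cacna1c, which encodes Cav1.2, was at 76.6, 108, 120, 202 and 121 CPM in Control, 178, 116, 137, 114 and 78.0 CPM in Pool 1 and 96.9, 170, 142, 127 and 107 CPM in Pool 2. A 2.63-fold range within Control alone held every value of Pool 1 and Pool 2. The log2 fold change was -0.011 (95% interval -0.50 to 0.47) in Pool 1 and 0.036 (95% interval -0.45 to 0.52) in Pool 2 against Control, intervals wide enough to include changes well beyond the threshold in either direction. Cacna1d, which encodes Cav1.3, had its lowest and highest values in Control, at 43.9 and 104 CPM, with log2 fold changes of 0.10 in both pools against Control (95% intervals -0.29 to 0.50 and -0.29 to 0.49). In Pool 2, replicate 2 stood out at 94.5 CPM from 4 libraries at 68.7 to 70.4 CPM.

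The other T-type genes did not pass the threshold. Cacna1g, known for its high level in thalamic relay neurons, was at 73.1 ± 8.75 CPM in Pool 2, 60.6 ± 16.0 in Control, 66.9 ± 7.45 in Pool 1 and 61.7 ± 20.4 in Vehicle (SD, n = 5 each). Its fold change of 0.27 in Pool 2 against Control was the largest of the family in that comparison (95% interval -0.14 to 0.68, unadjusted p = 0.187, adjusted p = 0.812 by edgeR). All 15 thalamic markers also had positive fold changes in Pool 2 against Control and 8 passed the threshold, beside 6.22% of all genes. Over the 20 libraries the correlation of Cacna1g with the mean of these markers was r = 0.28 (Pearson, permutation p = 0.232). Without Pool 2 replicates 2 and 4, the 2 libraries with the highest thalamic mean, r was 0.075. In Pool 2, from the highest to the lowest thalamic mean (replicates 4, 2, 3, 5 and 1), Cacna1g was at 86.8, 67.4, 64.2, 75.3 and 71.7 CPM. With the thalamic list as a covariate, the fold change of Cacna1g was 0.17 (unadjusted p = 0.451 by edgeR). Whether thalamic tissue bears on the level of Cacna1g was not tested. Cacna1h was at 169 ± 34.5 CPM in Pool 1 and 148 ± 34.8 in Control, with a log2 fold change of 0.19 (95% interval -0.11 to 0.49). Pool 1 replicate 1, at 227 CPM, and Control replicate 4, at 201 CPM, were its highest libraries, and without the latter the fold change was 0.33 (unadjusted p = 0.0214, adjusted p = 0.611 by edgeR), past the threshold.

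For the alpha-2/delta gene Cacna2d1, Vehicle was narrow, at 197 to 227 CPM, whereas Control ran from 140 to 283, Pool 1 from 128 to 270 and Pool 2 from 157 to 255 CPM. In Pool 1, replicate 5 at 128 CPM was far below the other 4, which lay between 243 and 270 CPM. The log2 fold changes were 0.033 in Pool 1 and -0.092 in Pool 2 against Control (95% intervals -0.36 to 0.42 and -0.48 to 0.30).

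**Figure D3:**
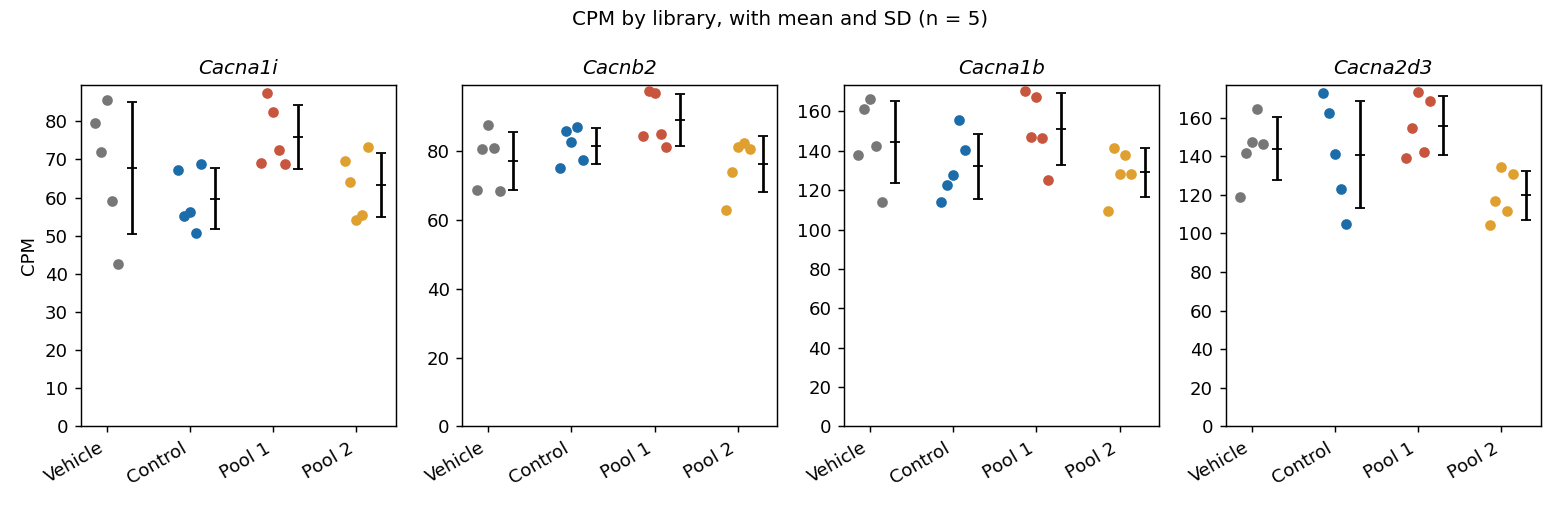
CPM (y axis) of Cacna1i, Cacnb2, Cacna1b and the related alpha-2/delta gene Cacna2d3 in each library, with the mean and SD of each group beside the points (n = 5). For Cacna1i 4 of 5 Pool 1 libraries are above all Control libraries, and for Cacna2d3 all Pool 2 libraries, at 104 to 134 CPM, are below all Pool 1 libraries.

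The remaining channel subunits were read in the same fit. Of 8, 1 passed the threshold in Pool 1 against Control, 0 in Pool 2 against Control, 1 in Pool 2 against Pool 1 and 1 in Control against Vehicle. The shares of all genes past it were 3.48%, 6.22%, 6.82% and 5.1%, so that single calls among 8 genes are not read as results about the family. In Pool 2 against Pool 1 it was Cacna2d3, an alpha-2/delta subunit, at 104, 117, 134, 112 and 131 CPM in Pool 2 and 139, 155, 173, 142 and 169 CPM in Pool 1. These groups did not overlap, as was the case for 1.41% of all genes between the pools in either direction. The log2 fold change was -0.38 (SE 0.12, unadjusted p = 0.00339, adjusted p = 0.325 by edgeR). Control, at 105 to 173 CPM, spread over nearly the whole range of both pools. With the thalamic or the dentate granule cell list as a covariate the difference between the pools was -0.29 (unadjusted p = 0.0819) or -0.26 (unadjusted p = 0.0105), short of the threshold. With the CA1 list it was -0.31 (unadjusted p = 0.0170 by edgeR), and under DESeq2 -0.39 (unadjusted p = 0.00205), both past it. The call held in all 10 fits that left out 1 library of the pools, at -0.43 to -0.33. In Control against Vehicle, Cacna2d2 was lower by a log2 fold change of -0.39 (unadjusted p = 0.0166, adjusted p = 0.734 by edgeR). Its Vehicle values of 42.9, 33.5 and 27.8 CPM lay above the Control range of 19.4 to 25.0 CPM and the other 2 within it, and leaving out Vehicle replicate 1 removed the call. Cacna1f, with at most 9 counts in a library, was higher in Pool 1 than in Control by a log2 fold change of 1.48 (unadjusted p = 0.0393, adjusted p = 0.917 by edgeR). That call rests on single counts of a gene under the study's limit on the mean count, and DESeq2 did not make it.

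Of the 8 gamma subunits and related AMPA receptor regulators, only Cacng1 passed, in Control against Vehicle, where 5.1% of all genes did. With at most 2 counts in a library, Cacng1 was under the study's limit as well, and no fold is given for it. Of 18 partners of the channels (calmodulins, RGK GTPases, RIM and RIM-binding proteins, STAC adaptors and others), 2 passed, both in Pool 2 against Control, where 6.22% of all genes did. Calm2, which encodes a calmodulin, the calcium sensor that many of these channels carry, was at 1415, 1249, 1473, 1553 and 1615 CPM in Pool 2 and 2075, 2045, 1914, 1409 and 1697 CPM in Control. Control replicate 4 lay within the Pool 2 range, and the log2 fold change was -0.32 (SE 0.12, unadjusted p = 0.0119, adjusted p = 0.513 by edgeR). It fell under the fold limit without Control replicate 1 (-0.27), Control replicate 2 (-0.28) or Pool 2 replicate 2 (-0.27). Rem1, an RGK GTPase known to inhibit these channels, was at 1.01 CPM (22 counts) in Pool 2 replicate 1, the library with high microglial markers, while the other Pool 2 libraries, at 0.428 to 0.501 CPM, lay within the Control range of 0.238 to 0.536. Its log2 fold change was 0.70 (unadjusted p = 0.0458, adjusted p = 0.640 by edgeR), and 0.42 without that library (unadjusted p = 0.217). The call was lost in 5 of the 10 fits that left out 1 library of these groups, those without Control replicates 2 (0.59), 3 (0.72), 4 (0.57) and 5 (0.75) being the others, and DESeq2 did not make it. Among 14 targets of calcium entry (calcium-activated potassium channels, CaM kinases, calcineurin subunits, NFAT and CREB factors), only Nfatc4 passed (6.22% of all genes in that comparison). This calcineurin-dependent factor was higher in Pool 2 than in Control by 0.62 (SE 0.25, unadjusted p = 0.0204, adjusted p = 0.559 by edgeR), at 1.63 to 2.46 CPM against 0.992 to 1.48 CPM. These groups did not overlap, as was the case for 1.05% of all genes in that comparison, but no library had over 59 counts of the gene, and the call was lost without Control replicate 2 (0.54, unadjusted p = 0.0529) or Pool 2 replicate 4 (0.51, unadjusted p = 0.0637). With the thalamic list as a covariate Calm2 was at -0.24 (unadjusted p = 0.0919) and Nfatc4 at 0.43 (unadjusted p = 0.128). Calm2 was also under the fold limit with the CA1 list (-0.29, unadjusted p = 0.0149 by edgeR) and the dentate granule cell list (-0.26, unadjusted p = 0.0120 by edgeR). Nfatc4 stayed past the threshold with these lists (0.64, unadjusted p = 0.0198, and 0.65, unadjusted p = 0.0152, by edgeR).

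Most members varied between libraries of the same group by more than most genes with a mean count of at least 1000, and many did so together. The within-group SD of log2 CPM was 0.39 for Cacna1c, 0.37 for Cacna1e, 0.34 for Cacna1g and Cacna2d1, 0.32 for Cacna1d, 0.26 for Cacna1i, 0.25 for Cacna1h, 0.22 for Cacna1a and 0.18 for Cacna1b. All of these exceeded the median of 0.16 over the 5217 genes with a mean count of at least 1000, and Cacna1c exceeded 97.1% of those genes. Cacnb2, at 0.14, was below that median. As a description, the 45 pairs of members had a median r of 0.47 over the 20 libraries, and 22 pairs were above 0.5. Cacna1d and Cacna1e were the most alike (r = 0.91, and 0.94 after removal of group means), followed by the L-type pair Cacna1c and Cacna1d (0.89) and by Cacna1e and Cacna2d1 (0.87). Cacna1i and Cacna1g correlated with each other at 0.59 and with every other member less.

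The genes most like each member over the 20 libraries, among 12098 genes with a mean count of at least 100, were as follows. They were Tnr, Ryr2 and Zfp398 for Cacna1e (r = 0.96 each), Arhgap21, Dop1a and Mrtfb for Cacna1d (0.94 to 0.95), Tanc1, Syt7 and Itsn1 for Cacna1c (0.93 to 0.96), and Evi5, Cpeb4 and Pak3 for Cacna2d1 (0.96 to 0.97). For Cacna1b they were Kidins220, Glg1 and Rab3gap2 (0.92 to 0.93), for Cacna1a Tln2, Cyfip1 and Aak1 (0.88 to 0.90), and for Cacna1h Tspoap1, Cul9 and Mcm3ap (0.93 to 0.95). The values were lower for Cacna1i (Jade2, Jcad and Smurf1, 0.86 to 0.88), Cacnb2 (Herc3, Hsd17b7 and Pcdhac2, 0.83 to 0.87) and Cacna1g (Dhx35, Tmem241 and Tmem94, 0.82 to 0.84). In no case was another member among the 3, and all points share the depth and scaling of their library.

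One property of the whole library followed this pattern. A long-transcript index was formed for each library after the pattern had been seen, as the mean log2 CPM of the 518 protein-coding genes with the longest exon sequence (at least 12.4 kilobases) minus that of the 518 with the shortest (at most 2.45 kilobases), among genes with a mean count of at least 1000 and without the members. It ran from -0.29 to 0.75 in Control, -0.24 to 0.74 in Pool 1, 0.079 to 0.70 in Pool 2 and 0.012 to 0.66 in Vehicle, and the groups overlapped throughout. The lowest values were those of Control replicate 1 and Pool 1 replicate 5, the same 2 libraries in which Cacna1e was near 310 CPM and in which Cacna2d1 and Cacna1c were lowest.

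Since the index was formed with the pattern of these genes in view, its correlations with them over the 20 libraries are a description, with no test. Of the 10 members, 7 had an r of at least 0.5, as did 46.2% of the 4171 other genes with a mean count of at least 1000, counted by the size of r and without those that form the index. They were Cacna1e (r = 0.96, and 0.92 without Control replicate 1 and Pool 1 replicate 5), Cacna1d (0.89), Cacna2d1 (0.84), Cacna1c (0.83), Cacna1b (0.82), Cacna1a (0.66) and Cacna1h (0.64). Cacnb2 (0.37), Cacna1i (0.35) and Cacna1g (0.33) were lower and below the median size of 0.47 over those genes. With the index as a covariate the SE of the Cacna1b fold changes fell from 0.11 to 0.068, and again no member passed after adjustment; Cacna1i in Pool 1 against Control was then at 0.31 (unadjusted p = 0.0590 by edgeR, adjusted p = 0.670).

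**Figure D4:**
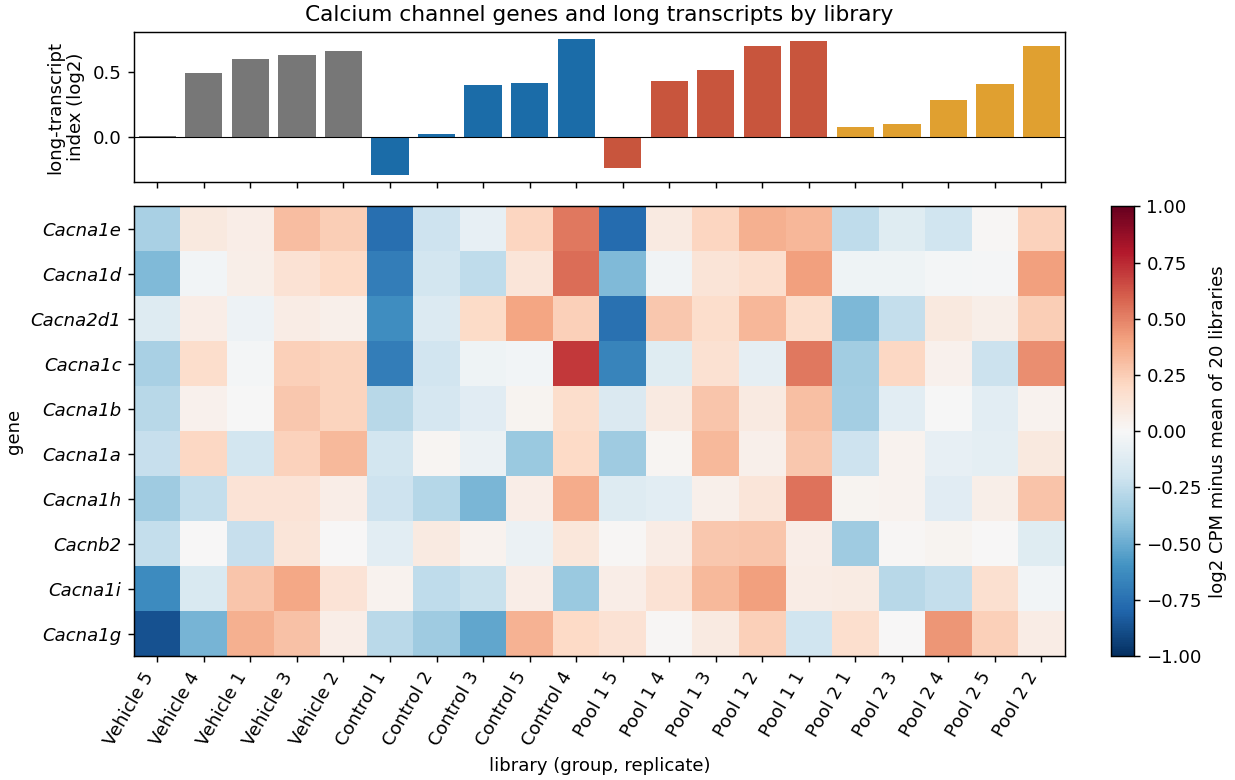
Top, long-transcript index of each library (y axis, difference of mean log2 CPM), with bars coloured by group and libraries sorted by the index within each group. Bottom, log2 CPM of each gene minus its mean over 20 libraries (color). Cacna1e, Cacna2d1 and Cacna1c are darkest blue in Control replicate 1 and Pool 1 replicate 5, where the index is lowest; Cacna1d is lowest in Control replicate 1 and Vehicle replicate 5. These genes are red in Control replicate 4, where the index is highest.

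**Figure D5:**
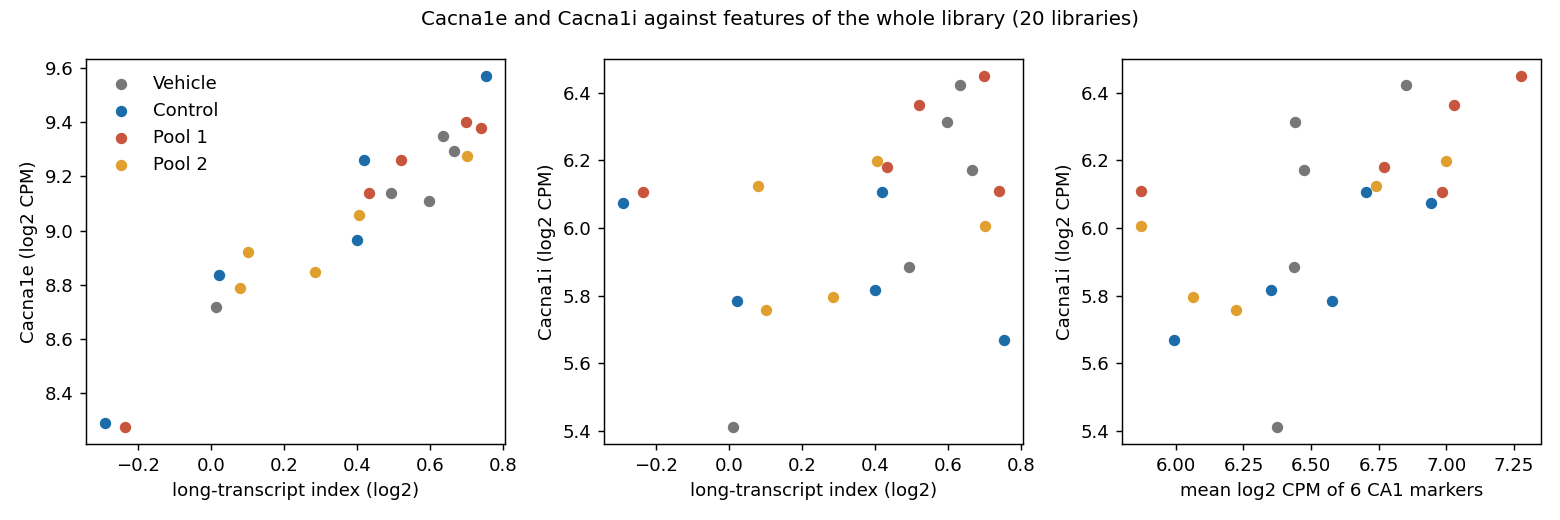
Log2 CPM of Cacna1e and Cacna1i (y axes) against the long-transcript index, and of Cacna1i against the mean log2 CPM of 6 CA1 markers; each point is 1 library, colored by group. Cacna1e rises with the index (r = 0.96), Cacna1i does so weakly (r = 0.35), and Cacna1i rises with the CA1 markers (r = 0.60).

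The members were also compared with the lists of hippocampal fields and of the thalamus. Of the 40 relations of 10 members with the CA1, CA3, dentate and thalamic lists, 6 passed at an adjusted p under 0.05 by permutation of Pearson's r, and none did by rank. An r of at least 0.5 in size was reached by 2 members with the CA1 list, 5 with the dentate list and 0 with the CA3 and thalamic lists. The shares of other genes with a mean count of at least 1000 that reached it were 10.4%, 27.9%, 7.59% and 4.05%. These counts among 10 genes are not read as results about the family. Cacna1c fell as the CA1 list rose (r = -0.65, permutation p = 0.0019, adjusted p = 0.0233; rho = -0.58, permutation p = 0.00749, adjusted p = 0.0914), whereas Cacna1i rose with it. With the dentate granule cell list, Cacna1d (r = 0.70, permutation p = 0.00056), Cacna1c (0.70, permutation p = 0.00063), Cacna1h (0.64, permutation p = 0.00233) and Cacna1e (0.59, permutation p = 0.00598) increased, at adjusted p-values of 0.0126, 0.0126, 0.0233 and 0.0399. Without Control replicate 4 and Pool 1 replicate 1, the 2 libraries with the highest dentate values, these r were 0.55, 0.53, 0.42 and 0.47. Both libraries also had the highest values of the index, 0.75 and 0.74. Cacna1d, Cacna1c, Cacna1h and Cacna1e were also among the members with an r of at least 0.5 with that index.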

How the data were processed

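The deposited table holds raw counts per gene for 20 mouse libraries. The authors prepared stranded poly(A) libraries, sequenced each library in 2 rounds, aligned reads to mm10 with STAR against GENCODE M20 and checked quality with FastQC 0.11.5 (submitters' notes and methods of the study). The table has 1 column per library; how rounds were joined and which strand column of STAR was used is not given in the sources used here, so reads of overlapping antisense genes may not be told apart. It holds no gene with a summed count under 10, which the authors discarded.

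From these counts, group differences were fitted in edgeR 4.0.16 (R 4.3.3; TMM scaling, robust quasi-likelihood fit, glmQLFTest) with all 4 groups in 1 fit, and p-values were adjusted over 25190 genes (Benjamini-Hochberg). The comparisons were Pool 1 and Pool 2 against Control, Pool 2 against Pool 1, and Control against Vehicle. DESeq2 1.42.0 was an alternative, and the others are given with their effects in the closing section. The edgeR and DESeq2 fits were also run on simulated counts with planted changes. Genes were drawn independently there, so that run does not cover genes that move together across libraries. Log2 CPM used a prior count of 2. Exon lengths were unions of exons in GENCODE M21 (GRCm38), the annotation at hand; the spans of Cacna1a and Cacna1c differ in it. Correlations with marker lists were tested by 100000 permutations of the libraries. The 95% intervals are for differences between group means and rest on the spread between these libraries. They do not cover variation between sRNA preparations, of which each sRNA group had 1.

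The members and gene lists were chosen with earlier results of these data known. Besides the 10 members, the text names every other channel subunit, gamma subunit, partner or calcium target past the threshold in at least 1 comparison, the 3 genes most correlated with each member, and markers of its lists. The libraries come from separate samples by their labels, which do not say that each is 1 mouse. Counts of replicate libraries differed by more than sampling noise (chi-square over degrees of freedom 8.23 to 66.8 in 40 pairs), so all were kept.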

Additional observations from a re-analysis of the deposited data

Results flagged for a closer look

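In 2 of the 40 sets of 5 libraries (10 genes in 4 groups) 1 library was separated from the other 4 by more than 0.71 of the range of its group; chance alone would give such a gap in about 1 set in 20. In Pool 2, replicate 2 had 94.5 CPM of Cacna1d, with the next library at 70.4 CPM. In Pool 1, replicate 5 had 128 CPM of Cacna2d1, with the next library at 243 CPM. The long-transcript index was the highest of its group in the first library (0.70) and the lowest of its group in the second (-0.24). No gene of the family had all libraries of Pool 1 on one side of the Control mean and all libraries of Pool 2 on the other, and none differed between the pools after adjustment (edgeR).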

How the results depend on the processing

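The counts of genes past the threshold were small, so a single gene moved them. Cacna1f, the only other subunit past the threshold between Pool 1 and Control, fell short under DESeq2, with the CA1 or the dentate granule list as a covariate, with the replicate block and without Control replicate 1 and Pool 1 replicate 5, and it was not tested under the mean count minimum of 10 or filterByExpr; the count was then 0. Cacna1i, the only member past the threshold in that comparison, fell short with the thalamus list (log2 fold change 0.29, unadjusted p = 0.0617), the CA1 list (0.26, unadjusted p = 0.0464) or the long-transcript index (0.31, unadjusted p = 0.0590) as a covariate, leaving 0 members. Between Pool 2 and Pool 1 the count of members rose from 0 to 1 in the fit of only these groups (Cacna1i, -0.30, unadjusted p = 0.0118), to 2 with the thalamus list (Cacna1b, -0.42, unadjusted p = 0.00444, and Cacnb2, -0.32, unadjusted p = 0.0119), to 1 with the dentate granule list (Cacna1b, -0.30, unadjusted p = 0.00569) and to 1 without Control replicate 1 and Pool 1 replicate 5. The other subunits past the threshold fell from 1 to 0 between Pool 2 and Pool 1 with the dentate granule list, and from 1 to 0 between Control and Vehicle with the long-transcript index. The cause was not tested for any of these, beyond the genes that the count minimums leave out. Shares of all genes past the threshold were counted only in the main fit. The counts in this section therefore have no share beside them and are not read as results about the family. None of the 10 members had an adjusted p under 0.05 under any of these settings: the lowest was 0.607 between Pool 1 and Control, 0.517 between Pool 2 and Control, 0.123 between Pool 2 and Pool 1 and 0.369 between Control and Vehicle (Benjamini-Hochberg over all genes tested).

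Leaving out 1 library at a time gave 0 to 1 members between Pool 1 and Control (0 without Control replicate 2, Pool 1 replicate 2 or Pool 1 replicate 3). Without Control replicate 4 the count stayed at 1, but Cacna1i fell short (0.29, unadjusted p = 0.0612) and Cacna1h passed (0.33, unadjusted p = 0.0214, by edgeR). There were 0 to 1 between Pool 2 and Pool 1 (Cacna1i without Vehicle replicate 1 or Pool 2 replicate 5) and 0 to 1 between Control and Vehicle (1 without Vehicle replicate 5). The other subunits ranged from 0 to 1 between Pool 1 and Control (0 without Control replicate 1, 2 or 4, or Pool 1 replicate 2 or 5), from 0 to 1 between Pool 2 and Control (1 without Control replicate 5 or Pool 2 replicate 5) and from 0 to 1 between Control and Vehicle (0 without Vehicle replicate 1).

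Every log2 fold change of a member that turned its sign was one that had not passed the threshold. Between Pool 1 and Control, Cacna1c turned to 0.0041 in the fit of only these groups, 0.0034 with the replicate block, and 0.19, 0.18 and 0.13 with the thalamus, CA1 and dentate granule lists, while the long-transcript index turned Cacna1d to -0.024, Cacna1e to -0.076 and Cacna2d1 to -0.12. Between Pool 2 and Control, Cacna1a turned to -0.0082 in the fit of only these groups, -0.052, -0.0044 and -0.00083 with the thalamus, CA1 and dentate granule lists, -0.0052 with the long-transcript index and -0.011 without Control replicate 1 and Pool 1 replicate 5. Cacna1c turned there to -0.21, -0.025 and -0.031 with the same lists and -0.098 without those libraries, Cacna1d to -0.039 with the thalamus list and -0.026 without those libraries, and Cacna1b to 0.020 without Vehicle replicate 4 and Pool 2 replicate 1. With 1 library left out, the range between Pool 1 and Control was -0.17 to 0.22 for Cacna1c, -0.023 to 0.30 for Cacna1d, -0.042 to 0.26 for Cacna1e and -0.096 to 0.18 for Cacna2d1. Between Pool 2 and Control it was -0.049 to 0.080 for Cacna1a, -0.082 to 0.020 for Cacna1b, -0.098 to 0.26 for Cacna1c, -0.026 to 0.28 for Cacna1d, -0.20 to 0.099 for Cacna1e and -0.22 to 0.0068 for Cacna2d1. The cause was not tested. Apart from the left-out libraries, 271 of 299 values of single genes kept their direction and side of the threshold.

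The labels number the libraries 1 to 5 in each group without saying that a number marks a shared litter, batch or day. The deviations of same-numbered libraries from their group means had a median correlation of 0.018 over 30 pairs, 13 of them over 0.1. For different numbers the median was -0.0052 over 120 pairs, 39 of them over 0.1. A library correlated best with its own number in 17 of 60 choices. These values do not settle whether the numbers mark pairs. Since the labels do not define them as pairs, the main fit did not use them, and a replicate block was fitted as an alternative. With the replicate block, Cacna1i had a log2 fold change of 0.35 (unadjusted p = 0.0265) between Pool 1 and Control and the count of members stayed at 1. The covariates other than the thalamus list, and the fit without Control replicate 1 and Pool 1 replicate 5, were chosen after seeing the data. With 5 libraries a group, the intervals given for many members include changes beyond the threshold.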
